A study of Mus musculus with 9 samples.

Results

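The cell cycle and DNA replication genes described here are 44 genes read in the sciatic nerve of 21-day-old C57BL6 mice. They were chosen by name, as 25 genes that act in mitosis and 19 that act in S phase or at entry into it, out of 36121 genes in the table. A gene was tested when its mean over the 9 libraries was at least 1 normalized TPM (TPM is a transcript abundance divided by transcript length and by the total of the library, and the authors scaled it further between libraries). Of the 44 genes 39 passed, 21 mitotic and 18 S phase, out of 15014 genes that passed in the whole table. The other 5 were Bub1, Ttk, Kif11 and Cenpf among the mitotic genes and Cdc6 among the S phase genes.

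The study asks what the loss of TDP-43, an RNA-binding protein encoded by Tardbp, does to Schwann cells, the glia that wrap the axons of peripheral nerves. Each library came from a separate mouse. The 3 controls were Tardbp fl/fl without Cre, the 3 cHet mice carried Cnp-Cre and 1 floxed Tardbp allele, and the 3 cKO mice carried Cnp-Cre and Tardbp fl/fl. Each group held 2 females, called female 1 and female 2 in order of mouse ID, and 1 male, and values are given in this order throughout. All 9 mice carried at least 1 floxed allele, and no group had Cre without a floxed allele. The Cnp promoter drives Cre in myelinating glia, and the paper uses Cnp-Cre for Schwann cells and oligodendrocytes. Fibroblasts, macrophages and vessel cells of the same nerve were not its intended target. The paper shows that cells other than Schwann cells, fibroblasts among them, kept TDP-43 with Dhh-Cre, and does not show it for Cnp-Cre. Groups follow the sample titles. The genotype field of 3 libraries (cHet female 1 and cKO females 1 and 2) differs from the title, and results are given with and without them.

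Cells that divide copy their DNA in S phase and separate it in mitosis. Entry into S phase is driven by D- and E-type cyclins and the E2F transcription factors, which switch on the genes for the helicase, the sliding clamp and nucleotide synthesis. The mitotic genes are switched on later, by complexes that bind the cell cycle genes homology region (CHR) and CCAAT boxes in their promoters. In rodent nerves most Schwann cells divide before and shortly after birth and leave the cell cycle when they start to form myelin.

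Tardbp checked the cKO titles: it stood at 185, 194 and 217 normalized TPM in the controls, at 177, 179 and 186 in cHet and at 103, 94.2 and 104 in cKO. All 3 cKO libraries lay below the other 6 libraries, also cKO females 1 and 2, whose genotype field differs. The cHet and control ranges overlapped, so that Tardbp cannot tell these 2 groups apart. The title of cHet female 1, whose genotype field also differs, was thus not checked against control. The 16 Schwann cell markers all passed the minimum of 1, with sums from 76300 to 133000 normalized TPM per library. Control female 1 and the cKO male stood apart in skeletal muscle markers (mean log2 value 5.97 and 4.80 above the median of the 9 libraries). Control female 2, cHet female 1 and the cKO male stood apart in neuron markers (3.68, 2.48 and 2.59), and control female 1 and the control male in adipocyte markers (2.09 and 2.60). TPM hold no read counts, and how far counting alone moves a value is not known.

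The S phase and mitotic sets were picked for what the proteins do, and their promoters differ in sequence as well. RefSeq promoters (250 bases before to 50 after each start, GRCm38.p6) were found for 36 of the 44 genes, 21 mitotic and 15 S phase. The letters searched on both strands were TTTGAA or TTCGAA for the CHR, CCAAT for the CCAAT box, and TTTGGCG or TTTCCCG or TTTCGCG or TTTGCCG for an E2F site. A CHR stood in 17 of 21 mitotic promoters (81%) and 2 of 15 S phase promoters (13.3%), with 21.7% over all 27025 genes that have a promoter. CCAAT stood in 19 of 21 mitotic genes (90.5%), 9 of 15 S phase genes (60%) and 41.1% of all genes. The E2F letters stood in 4 of 21 mitotic genes (19%), 7 of 15 S phase genes (46.7%) and 7.65% of all genes. All 17 mitotic genes with a CHR also held CCAAT, a pair that 9.65% of all genes hold. Such a match is a description of the letters and not a bound site.

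The 100 bases before the start are printed for 4 mitotic genes and 1 S phase gene whose values are given below, with the searched letters in capitals. ATTGG is CCAAT on the other strand and TTCAAA is TTTGAA on the other strand. Mki67 lies at chr7:135716380-135716479, Top2a at chr11:99024190-99024289, Cdk1 at chr10:69352913-69353012 and Mcm6 at chr1:128359706-128359805, all on the minus strand, and the second of 2 Prc1 promoters lies at chr7:80294376-80294475 on the plus strand.
Mki67: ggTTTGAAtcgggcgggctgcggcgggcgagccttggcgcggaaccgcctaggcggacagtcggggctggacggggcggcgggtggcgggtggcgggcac
Top2a: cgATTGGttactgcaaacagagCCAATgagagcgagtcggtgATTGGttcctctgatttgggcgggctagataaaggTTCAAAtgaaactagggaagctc
Cdk1: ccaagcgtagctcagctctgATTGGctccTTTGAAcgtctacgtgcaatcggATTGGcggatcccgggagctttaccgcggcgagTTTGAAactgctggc
Prc1: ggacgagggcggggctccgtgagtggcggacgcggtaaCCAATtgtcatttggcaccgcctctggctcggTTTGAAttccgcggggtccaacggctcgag
Mcm6: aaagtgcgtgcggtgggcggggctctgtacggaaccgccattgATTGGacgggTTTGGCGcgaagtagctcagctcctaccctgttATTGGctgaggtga
In this stretch Cdk1 held both the CHR and the CCAAT letters more than once, Top2a held 1 CHR behind several CCAAT boxes, Prc1 had 1 of each, and Mcm6 had an E2F site between CCAAT boxes and no CHR.

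In these nerves the S phase genes were read at higher levels per transcript length than the mitotic genes. All 19 S phase genes summed to 220 to 269 normalized TPM per library and all 25 mitotic genes to 60.0 to 115, those below the minimum included. Most of the S phase sum came from 2 genes, Pcna, the sliding clamp of DNA polymerase (mean of 9 libraries 78.3 normalized TPM), and Ccnd1, which encodes cyclin D1, the partner of the G1 kinases (60.0). Mcm7, a subunit of the helicase that opens the DNA, followed at 22.8, and Rrm1, a subunit of ribonucleotide reductase, at 16.7. The mitotic gene with the highest mean was Prc1, which bundles the microtubules of the central spindle, at 14.0. Cdk1, the kinase that drives entry into mitosis, had a mean of 7.37, Top2a, which untangles DNA strands, 6.57, and Mki67, the gene of the Ki-67 proliferation marker, 2.07. Several of the 44 genes share exons with a neighbour on the other strand (Mcm7 with Ap4m1 and Cops6, Ccnd1 with LTO1, Tk1 with Afmid, Gins2 with Gse1, Ccne2 with Ints8, Ccna2 with Exosc9, Cdc20 with Elovl1, Plk1 with Gm44985, Kif20a with Cdc23 and Nusap1 with Oip5, besides those of Prc1, Ube2c and Cdca8 named below). On the same strand Mcm7 also holds Mir25 and Mir93, and Top2a holds Gm23451. Whether reads were counted by strand is not given in the sources used here, so that the values of such pairs are uncertain. In whole nerve, fewer dividing cells and less of the RNA in each of them cannot be told apart.

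No S phase or mitotic gene passed the test between cKO and control nerves. At an adjusted p under 0.05 (limma, Benjamini-Hochberg over all 15014 genes) 0 of 39 genes were called, where 1.57% of all genes were. At an unadjusted p under 0.05 the count was 1 of 39 (Prc1), beside 12.9% of all genes. The median log2 fold change was -0.16 over the 18 S phase genes and -0.05 over the 21 mitotic genes, beside -0.02 over all genes. Of the S phase genes 14 of 18 lay below 0 (77.8%) and of the mitotic genes 12 of 21 (57.1%), with 53.6% of all genes. The median standard error was 0.24 for the S phase genes, 0.33 for the mitotic genes and 0.17 for all genes.

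Among the S phase genes the helicase and origin group (Mcm2 to Mcm7, Gins2 and Cdt1) ran from -0.35 to 0.01 in log2 fold change between cKO and control. Mcm2, whose product is part of the MCM helicase ring, stood at 3.79, 3.17 and 1.87 normalized TPM in the controls, 3.80, 2.46 and 2.32 in cHet and 2.34, 2.45 and 2.91 in cKO. The cKO values lay inside the control range, and the log2 fold change was -0.13 (95% interval -0.75 to 0.49, adjusted p = 0.911). Mcm6, of the same ring, stood at 8.17, 6.71 and 6.44 in the controls, 8.10, 6.39 and 5.69 in cHet and 5.63, 5.35 and 5.42 in cKO. Every cKO value of Mcm6 was below the other 6, with a log2 fold change of -0.34 against control (95% interval -0.70 to 0.01, adjusted p = 0.409). Mcm5 also had its 3 cKO values (2.52, 2.51 and 2.46) below the control values (4.23, 3.14 and 2.75), while cHet (4.12, 2.74 and 2.48) overlapped both, at -0.35 (95% interval -0.87 to 0.16, adjusted p = 0.586). Mcm5 and Mcm6 were singled out after their values were seen. They are the 2 of 18 S phase genes whose cKO values all lay below the controls, where 8.57% of all genes do so, and 0 of 18 lay above.

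In the clamp and nucleotide group the SD between mice within groups ran from 0.16 log2 units (Rrm1) and 0.18 (Pcna) to 0.55 (Rrm2). Pcna stood at 76.2, 82.1 and 65.4 normalized TPM in the controls, 81.3, 79.9 and 70.3 in cHet and 79.0, 98.6 and 71.9 in cKO, so that the groups overlapped. Its log2 fold change in cKO against control was 0.15 (95% interval -0.16 to 0.46, adjusted p = 0.735). Rrm2, the regulated subunit of ribonucleotide reductase, stood at 4.94, 2.62 and 2.15 in the controls, 5.51, 2.39 and 1.74 in cHet and 1.66, 2.58 and 2.31 in cKO. The high values of Rrm2 came from 1 control and 1 cHet mouse, and its log2 fold change of -0.42 had a 95% interval of -1.35 to 0.51 (adjusted p = 0.752). Rrm1, its partner subunit, stood at 20.4, 16.8 and 17.1 in the controls, 17.1, 13.4 and 14.2 in cHet and 17.5, 18.7 and 15.0 in cKO, with overlapping groups. The log2 fold changes of the other members were -0.22 for Tyms (thymidylate synthase) and 0.02 for Tk1 (thymidine kinase).

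The G1 and G1/S regulators ran both ways. Ccnd1 stood at 57.7, 58.6 and 44.7 normalized TPM in the controls, 57.4, 71.1 and 54.2 in cHet and 66.6, 53.03 and 76.4 in cKO. The 3 groups overlapped, and the log2 fold change in cKO against control was 0.28 (95% interval -0.11 to 0.66, adjusted p = 0.571). E2f1, an E2F factor that opens S phase, stood at 3.22, 5.62 and 3.34 in the controls, 4.20, 2.77 and 2.67 in cHet and 2.48, 2.74 and 4.61 in cKO. Uhrf1, which carries DNA methylation over to the new strand, stood at 2.25, 1.63 and 1.41 in the controls, 3.17, 2.75 and 0.940 in cHet and 1.23, 1.21 and 1.85 in cKO. Both overlapped between groups, with log2 fold changes in cKO against control of -0.27 for E2f1 and -0.23 for Uhrf1. The E-type cyclin genes Ccne1 and Ccne2 were each at -0.25.

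The markers used most often for dividing cells differed by little between the group means. Mki67 stood at 3.02, 1.82 and 1.08 normalized TPM in the controls, 3.53, 1.92 and 1.26 in cHet and 1.79, 1.72 and 2.52 in cKO. Its log2 fold change in cKO against control was 0.08 (95% interval -0.80 to 0.96, adjusted p = 0.965). Top2a stood at 10.4, 7.06 and 3.36 in the controls, 9.79, 6.43 and 3.23 in cHet and 5.12, 6.34 and 7.36 in cKO, with a log2 fold change of -0.03 (95% interval -1.04 to 0.98, adjusted p = 0.990). For both genes the 3 control and 3 cHet mice spanned a wider range than the cKO mice.

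**Figure D1:**
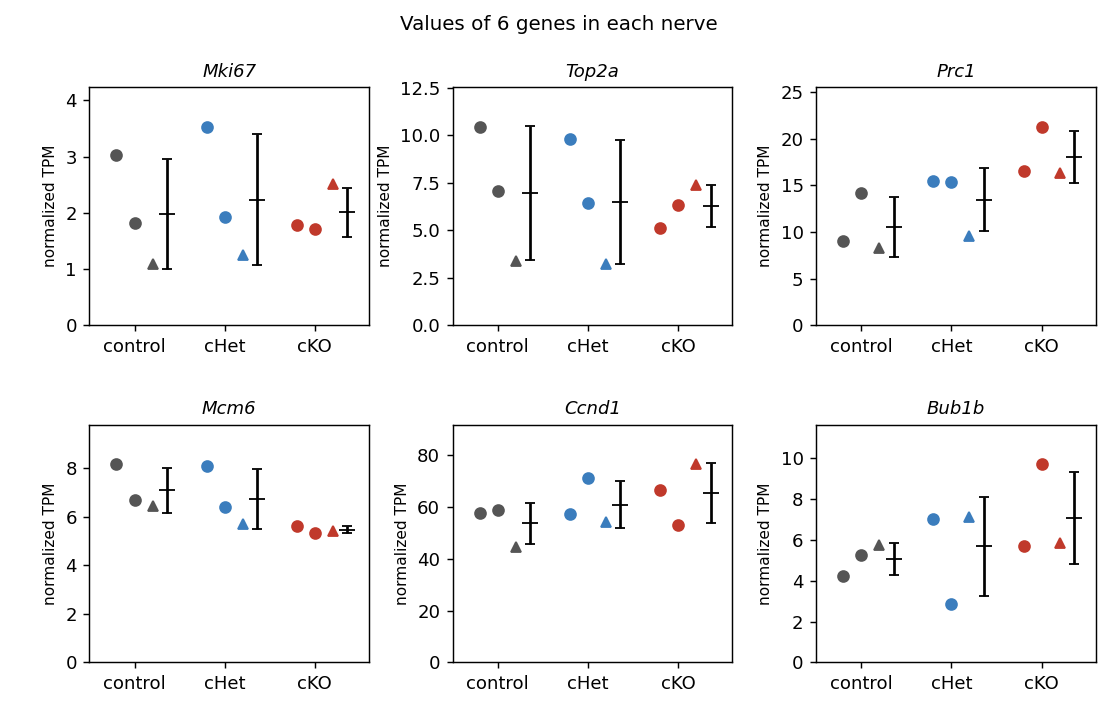
Normalized TPM of Mki67, Top2a, Prc1, Mcm6, Ccnd1 and Bub1b in each of the 9 nerves, by group (circles are females, triangles are males, bars are the mean and SD of 3 mice). The cKO values of Prc1 (16.3 to 21.3) all lie above the control values (8.32 to 14.2) and those of Mcm6 (5.35 to 5.63) all lie below them (6.44 to 8.17), while the groups of the other 4 genes overlap.

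The mitotic cyclins and kinases (Ccna2, Ccnb1, Ccnb2, Cdk1, Plk1, Aurka and Aurkb) had log2 fold changes from -0.35 to 0.13 between cKO and control. Ccnb1, which encodes cyclin B1, the partner of Cdk1, stood at 3.58, 1.66 and 0.932 normalized TPM in the controls, 3.68, 1.501 and 1.12 in cHet and 1.39, 1.38 and 1.54 in cKO. Cdk1 itself stood at 11.9, 9.44 and 6.05 in the controls, 8.42, 5.40 and 4.58 in cHet and 6.33, 8.29 and 5.95 in cKO. The cKO values of Ccnb1 lay inside the control range, and the lowest cKO value of Cdk1 lay just below the lowest control. The log2 fold changes were -0.27 for Ccnb1 (95% interval -1.31 to 0.77) and -0.35 for Cdk1 (95% interval -1.0 to 0.29).

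Genes of the spindle checkpoint, the anaphase-promoting complex and the chromosome passenger complex (Cdc20, Bub1b, Birc5, Ube2c and Cdca8) ran from -0.63 to 0.41. Bub1b, which encodes a checkpoint protein that holds back chromosome separation, stood at 4.20, 5.26 and 5.74 normalized TPM in the controls, 7.03, 2.88 and 7.13 in cHet and 5.70, 9.67 and 5.83 in cKO. The highest value came from cKO female 2 and the lowest from cHet female 2, and the log2 fold change in cKO against control was 0.41 (95% interval -0.36 to 1.19, adjusted p = 0.698). Cdca8, which encodes borealin of the passenger complex, stood at 3.83, 3.45 and 1.95 in the controls, 5.23, 3.43 and 1.18 in cHet and 1.38, 1.23 and 2.97 in cKO. Its groups overlapped, with a log2 fold change of -0.63 (95% interval -1.73 to 0.46, adjusted p = 0.668). Cdca8 shares exons with the antisense gene 9930104L06Rik, which stood higher (8.938 to 12.18 normalized TPM) and had a log2 fold change of -0.11. Ube2c shares exons with the antisense gene Tnnc2, a skeletal muscle gene. Ube2c was highest in control female 1 (8.97), where Tnnc2 was also highest (2310 normalized TPM). It was next highest in cHet female 1 (7.64), where Tnnc2 was lowest (1.369). In the cKO male Ube2c was at 4.84 and Tnnc2 at 1224. The part of Tnnc2 reads in the Ube2c values was not tested.

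Among the motors and spindle genes Prc1 stood apart. It was read at 9.03, 14.2 and 8.32 normalized TPM in the controls, 15.5, 15.4 and 9.57 in cHet and 16.5, 21.3 and 16.3 in cKO. Every cKO value was above the other 6, and the log2 fold change was 0.78 in cKO against control (SE 0.25, 95% interval 0.22 to 1.34), with an unadjusted p of 0.0124 and an adjusted p = 0.206 (limma). Prc1 was the 1 of 21 mitotic genes whose cKO values all exceeded the controls, where 8.85% of all genes do so, and 0 of 21 lay wholly below. Over 23 other settings of the test its log2 fold change ran from 0.33 to 1.07 and the adjusted p from 0.1 to 0.984 (limma). The lowest log2 fold change came without the 2 libraries high in adipocyte markers, which left control female 2 as the only control. The lowest adjusted p came without control female 2. Prc1 shares exons with the antisense gene Rccd1, whose log2 fold change was -0.22 (adjusted p = 0.567).

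Kif23, the motor that works beside Prc1 in the central spindle, did not follow it. Kif23 stood at 5.86, 5.42 and 3.91 normalized TPM in the controls, 7.48, 5.93 and 4.03 in cHet and 2.73, 4.24 and 6.26 in cKO, a log2 fold change of -0.23 (adjusted p = 0.843). Cenpe, a kinetochore motor, stood at 1.33, 0.661 and 0.606 in the controls, 1.24, 0.936 and 1.40 in cHet and 0.964, 1.14 and 1.09 in cKO, with overlapping groups. The remaining motors and spindle genes (Kif20a, Nusap1, Tpx2 and Hmmr) ran from -0.20 to 0.22.

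**Figure D2:**
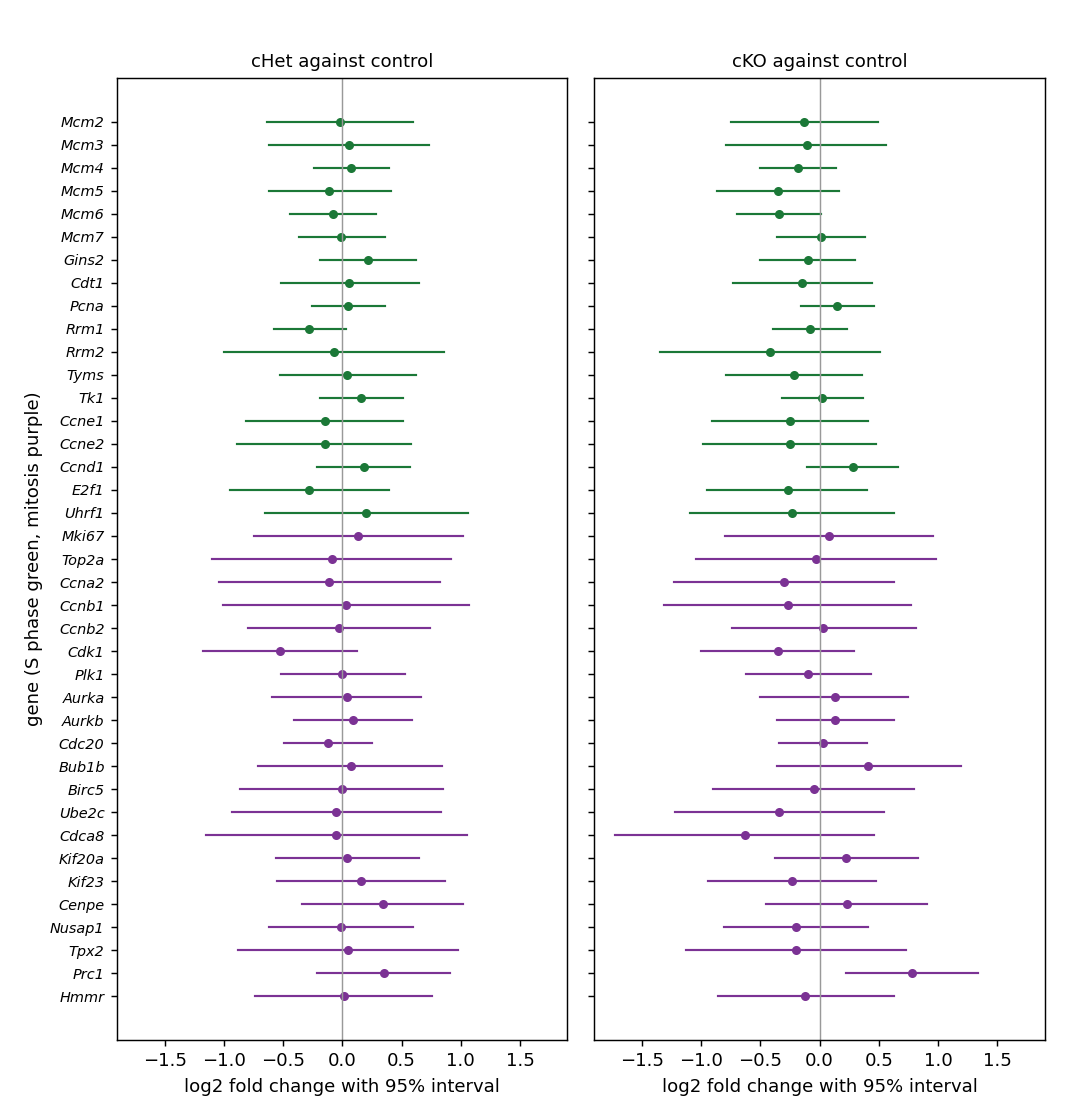
Log2 fold changes of the 39 tested genes in cHet against control (left) and cKO against control (right), with 95% intervals from limma on log2(value + 0.5), S phase genes in green and mitotic genes in purple. Prc1 in cKO against control (0.22 to 1.34) is the interval that leaves out 0, and no gene has an adjusted p under 0.05.

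The cHet nerves, with 1 floxed allele, were compared with the same 3 controls. Here 0 of 39 genes were called, as were 0% of all genes (122 genes higher and 286 lower at an unadjusted p under 0.05). None of the 39 genes reached an unadjusted p under 0.05, beside 2.72% of all genes. The median log2 fold change was 0.02 over the S phase genes and 0.01 over the mitotic genes, beside -0.03 over all genes. The largest changes in either direction were those of Cdk1, at -0.53 (95% interval -1.18 to 0.12), and Prc1, at 0.35 (95% interval -0.21 to 0.91). No S phase or mitotic gene had cHet values wholly above or below the controls, where 2.69% of all genes lay above and 4.41% below.

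Between cKO and cHet nerves 0 of 39 genes were called, where 1.71% of all genes were, and 0 of 39 reached an unadjusted p under 0.05, beside 14.6% of all genes. The median log2 fold change was -0.15 over the S phase genes, -0.05 over the mitotic genes and 0.02 over all genes. Prc1 was 1 of 21 mitotic genes with every cKO value above every cHet value (log2 fold change 0.43, 95% interval -0.13 to 0.99), where 13.3% of all genes are. Mcm6 was 1 of 18 S phase genes with every cKO value below (-0.26, 95% interval -0.62 to 0.09), where 11% of all genes are. Scaling the libraries to equal sums shifted the median of all genes by -0.13 in this comparison, so that it became -0.12. The medians of the sets then were -0.29 for the S phase genes and -0.17 for the mitotic genes, where they had been -0.15 and -0.05. Without the 3 libraries whose genotype field differs from the title, which leaves 1 cKO library, 0 of the S phase and mitotic genes were called in any comparison. The medians without them were -0.14 for the S phase and 0.12 for the mitotic genes in cKO against control, and 0.05 and 0.35 in cKO against cHet. The count was also 0 in each comparison without the libraries high in skeletal muscle, neuron or adipocyte markers.

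The mitotic genes varied widely between mice of the same group. The SD between mice within groups had a median of 0.42 log2 units over the 21 mitotic genes and 0.27 over the 18 S phase genes, beside 0.21 over all 15014 genes. The range of the 3 group means had a median of 0.22 for the mitotic, 0.26 for the S phase and 0.25 for all genes. Such a range compares means of 3 mice and is narrower than the spread of single mice by construction. Among genes with a mean from 1 to 3 normalized TPM the median SD was 0.32 for 12 mitotic genes, 0.34 for 6 S phase genes and 0.42 for all genes. In this band the mitotic genes did not spread more than the others. From 3 to 10 normalized TPM it was 0.49 for 8 mitotic genes, 0.33 for 7 S phase genes and 0.28 for all genes.

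**Figure D3:**
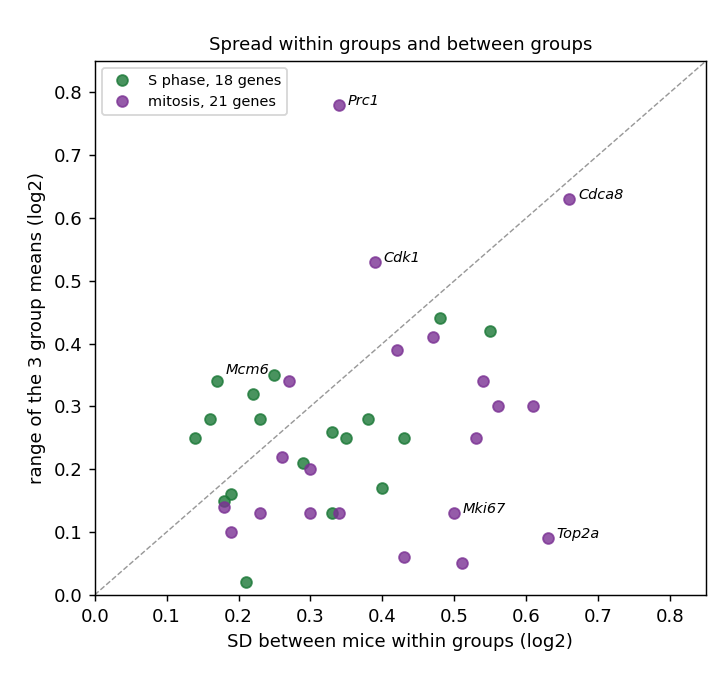
SD between mice within groups (x axis) and range of the 3 group means (y axis), both in log2 units, for each of the 39 tested genes, with S phase genes in green, mitotic genes in purple and a dashed line where both are equal. Top2a lies far to the right and low (0.63 within groups, 0.09 between them), and Prc1 lies highest (0.34 within groups, 0.78 between them).

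The spread was shared by most mitotic genes. The mean log2 value over the 21 genes, given relative to the median of the 9 libraries, was 0.35, 0.00 and -0.33 in the controls, 0.50, -0.08 and -0.35 in cHet and -0.22, 0.03 and 0.11 in cKO. The highest of the 9 values was in cHet female 1 for 11 of 21 mitotic genes and in control female 1 for 6, where these mice hold the highest value for 9.21% and 12.4% of all genes. The lowest of the 9 values was in the cHet male for 10 of 21 and in the control male for 6, beside 9.8% and 18.6% of all genes. Bub1b, Kif20a, Cenpe and Prc1 had their highest value in other mice. Of the 4 mitotic genes below the minimum of 1, Bub1 was highest in control female 1 (1.94 normalized TPM), and Ttk (1.345) and Kif11 (1.04) in cHet female 1, while Cenpf was highest in the cKO male (1.68).

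**Figure D4:**
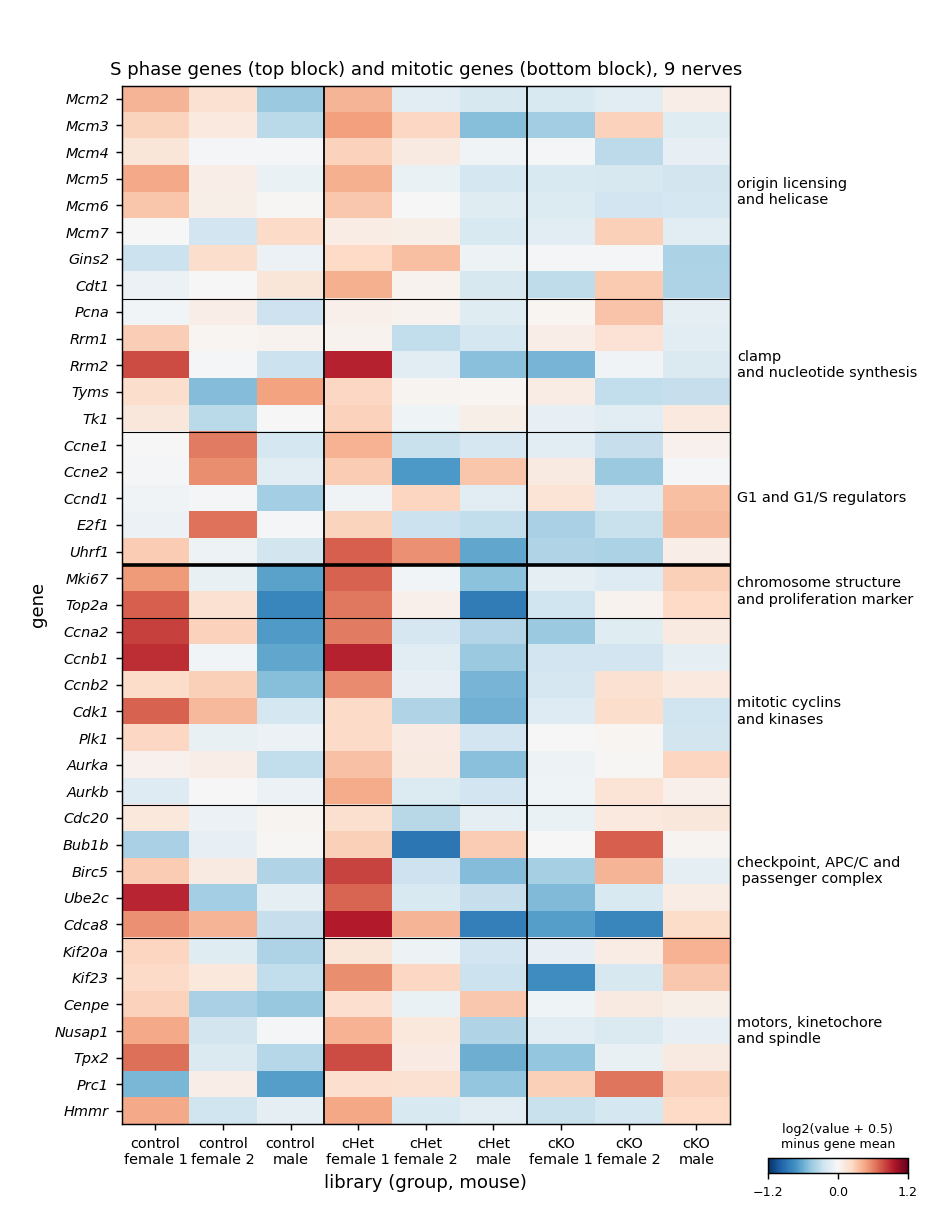
Log2(value + 0.5) of the 39 tested genes minus the mean of each gene over the 9 libraries, with libraries in columns by group and genes in rows by role, S phase above the thick line and mitosis below it. Red columns in the mitotic block mark control female 1 and cHet female 1, blue columns mark the control and cHet males, and Prc1 and Bub1b break the pattern.

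Sex went with this order in controls and cHet but not in cKO. Within its group, the male was the lowest of 3 for 14 of 21 mitotic genes in controls, for 17 of 21 in cHet and for 3 of 21 in cKO, where the same mice are lowest for 41.65%, 35.31% and 29.8% of all genes. For the S phase genes the counts were 10, 14 and 6 of 18. In a model with group and sex, whose sex term was read after these values were seen, the median log2 difference of males against females was -0.27 over the mitotic genes, -0.18 over the S phase genes and -0.04 over all genes. No gene of the 39 was called, where 0.0333% of all genes were, and 4 reached an unadjusted p under 0.05, each lower in males: Pcna (-0.25), Cdk1 (-0.51), Prc1 (-0.43) and Mcm3 (-0.49). Over all genes 4.1% reached it. With 1 male per group, sex and the single mouse cannot be told apart within a group.

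Markers of other cell types also differed between these mice. The 11 pericyte and smooth muscle markers, all above the minimum of 1, had mean log2 values 0.90 above the median in control female 1 and 0.55 above it in cHet female 1, the mice with the highest mitotic values. They stood at -0.29 and -0.01 in the other controls, at -0.14 and 0.00 in the other cHet mice and from -0.05 to 0.14 in cKO. Their sums ran from 322 to 515 normalized TPM in controls, 348 to 448 in cHet and 456 to 558 in cKO. Part of the mean log2 values came from single markers. Des was at 87.6 in control female 1 and 45.7 in the cKO male, the libraries high in skeletal muscle markers. In the other libraries Des was at most 6.04. Cnn1 was at 10.8 in cHet female 1 and at most 2.55 elsewhere. Abcc9 (9.55) and Kcnj8 (7.70) were also highest in control female 1. The 16 macrophage markers, also all above the minimum, stood at 0.51 in control female 1 and 0.26 in cHet female 1. They stood at 0.43 in cKO female 1, which was low in mitotic genes, with sums of 532 to 927, 581 to 760 and 627 to 877 normalized TPM. The 14 fibroblast markers, all above the minimum, stood at 0.84, 0.30 and 0.37 in these 3 mice, with sums of 5980 to 9360, 7330 to 7740 and 4860 to 9110. The bone marrow myeloid markers, of which 6 of 10 passed the minimum, were highest in cHet female 1 (1.49, sum 84.6 normalized TPM) and stood at -0.59 in control female 1, with sums of 14.5 to 40.3 in the other 8 libraries. The erythroid markers, of which 6 of 9 passed, stood at 0.70 in cHet female 1, 0.16 in control female 1 and 1.02 in the cKO male. None of these markers was listed at 0 in every library, and none was called in any comparison. Over all genes 1.57% were called in cKO against control, 0% in cHet against control and 1.71% in cKO against cHet. The 6 muscle progenitor markers were all below the minimum of 1, with sums of at most 3.6 normalized TPM. The part of these cells in the mitotic values was not tested.

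The distance between S phase and mitotic genes ran from 0.89 to 1.33 log2 units over single mice, and the groups overlapped. The mean log2 value of the S phase genes, relative to the median of the 9 libraries, was 0.22, 0.14 and -0.02 in the controls, 0.39, 0.05 and -0.11 in cHet and -0.07, -0.02 and 0.00 in cKO. Both sets were highest in cHet female 1 and lowest in the cHet male, and the S phase values spread less. The S phase mean exceeded the mitotic mean by 0.89, 1.16 and 1.33 log2 units in the controls, 0.91, 1.15 and 1.25 in cHet and 1.16, 0.97 and 0.91 in cKO. The group means of this distance were 1.13 ± 0.22, 1.11 ± 0.17 and 1.02 ± 0.13 (SD, n = 3), so that the groups differed by less than their SD.

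**Figure D5:**
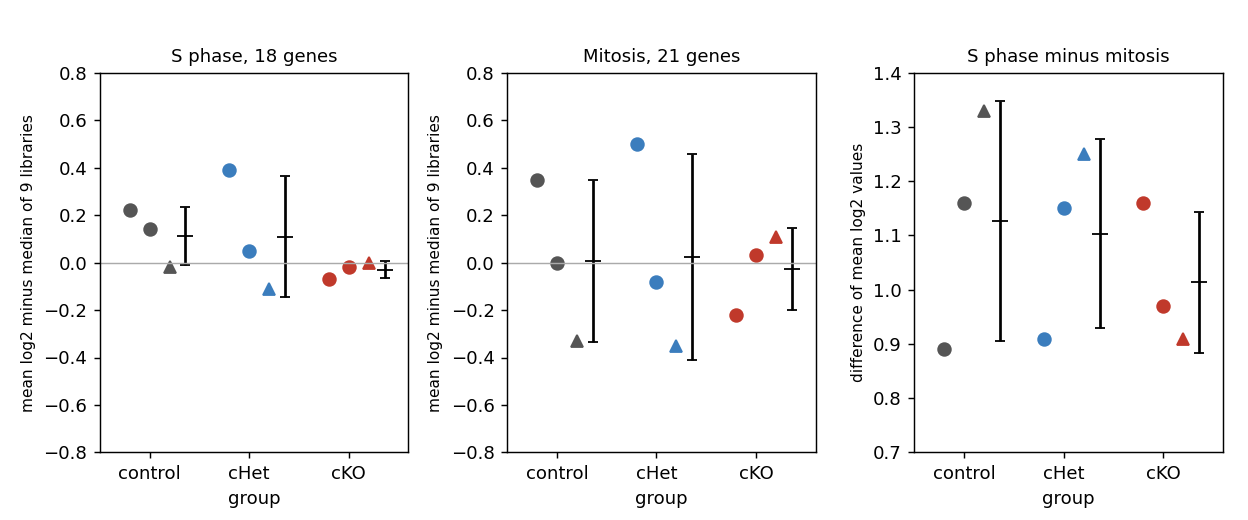
Mean log2 value of the 18 S phase genes (left) and the 21 mitotic genes (middle) relative to the median of the 9 libraries, and the difference of the 2 means (right), per nerve and group (circles are females, triangles are males, bars are the mean and SD of 3 mice). Controls and cHet span -0.33 to 0.35 and -0.35 to 0.50 in the mitotic panel, the 3 cKO nerves lie between -0.22 and 0.11, and the groups overlap in every panel.

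Genes of the same pathways outside the 44 were read from lists. Of 45 other mitotic genes tested 0 were called in cKO against control, with a median log2 fold change of -0.14. Of 59 other S phase genes 0 were called, also with a median of -0.14. Over all genes 1.57% were called, with a median of -0.02. The cKO values lay wholly below the controls for 8 of 45 and 10 of 59 genes, beside 8.57% of all genes. They lay wholly above for 2 and 4, beside 8.85%. Prim1, the small subunit of primase, stood at 8.33, 7.86 and 8.72 normalized TPM in the controls, 9.08, 8.42 and 6.34 in cHet and 4.64, 4.99 and 5.38 in cKO. Its cKO values all lay below the others, and its log2 fold change of -0.68 did not pass the threshold (adjusted p = 0.0760). Foxm1, a factor that turns on mitotic genes, stood at 3.32, 3.80 and 3.32 in the controls, 4.79, 6.36 and 3.25 in cHet and 1.97, 1.94 and 3.19 in cKO, at -0.50 (adjusted p = 0.485). Psrc1 of the mitotic list and E2f2 of the S phase list were among the genes wholly above the controls. Psrc1 stood at 2.18, 1.75 and 1.69 in the controls and 2.46, 2.79 and 3.63 in cKO. E2f2 stood at 1.98, 2.16 and 1.92 in the controls and 2.47, 3.89 and 2.525 in cKO. For both genes the cHet values overlapped the other 2 groups.

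Genes that hold the cycle back showed no call either. Of 24 inhibitors and pocket protein genes 0 were called in cKO against control (median 0.06), and of 12 p53 targets 0 were called (median 0.12). Over all genes 1.57% were called, with a median of -0.02. Cdkn1a, the p21 inhibitor, stood at 264.7, 317.9 and 502.6 normalized TPM in the controls, 265.3, 350.5 and 378.1 in cHet and 354.4, 506.0 and 349.5 in cKO, with overlapping groups. Cdkn1c, the p57 inhibitor, stood at 93.6, 93.9 and 112 in the controls, 86.2, 72.1 and 78.7 in cHet and 76.2, 74.4 and 62.6 in cKO. Its cKO values all lay below the controls, at a log2 fold change of -0.49 (adjusted p = 0.0957). It was the 1 of 24 genes in its list to do so, beside 8.57% of all genes. In that list 4 of 24 lay wholly above the controls, beside 8.85% of all genes. Btg2, 1 of these 4, stood at 11.2, 8.88 and 11.1 in the controls, 11.45, 8.19 and 8.96 in cHet and 11.8, 11.7 and 11.3 in cKO. Of the p53 targets 2 of 12 lay wholly above the controls and 1 below.

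Of 18 G1 cyclins, kinases and growth signals 1 was called in cKO against control, and it was lower, where 1.57% of all genes were called. Igf1r, the receptor for insulin-like growth factor 1, stood at 16.3, 15.3 and 16.6 normalized TPM in the controls, 15.4, 16.0 and 14.0 in cHet and 10.7, 8.55 and 8.82 in cKO. It fell by 0.75 on the log2 scale against control (SE 0.11, adjusted p = 0.0189) and by 0.67 against cHet (adjusted p = 0.0288). Neither call was stable. Leaving out 1 library, the call against control was lost in 4 of 9 fits, without control female 1 (adjusted p = 0.0646), the control male (0.0665), cKO female 2 (0.0703) or the cKO male (0.0741). The call against cHet was lost in 6 of 9, without control female 1 (0.0508), any of the 3 cHet mice (0.0956, 0.137 and 0.0897), cKO female 2 (0.0975) or the cKO male (0.114). Both were also lost with only the compared groups in the fit (0.0914 and 0.0648), without the 3 libraries whose genotype field differs from the title (0.456 and 0.531) and under the other settings added after the data were seen. Cdk6, a G1 kinase that pairs with cyclin D1, stood at 7.86, 10.8 and 12.8 in the controls, 7.64, 9.92 and 7.50 in cHet and 5.81, 4.41 and 5.72 in cKO, and missed the threshold (-0.90, adjusted p = 0.0796). In cHet against control no gene of these 5 lists was called, as were 0% of all genes.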

How the data were processed

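RNA from the sciatic nerves of 9 mice was sequenced by the authors, and 1 table of 36121 genes was deposited, with 1 value per gene and library. Its values are a signal in normalized TPM: per the submitters' notes the authors used kallisto 0.44.0 and sleuth 0.30.0 with GRCm38, and the sums per library ran from 934932 to 1158094, so that the TPM were scaled further between libraries. The methods name a TruSeq RNA library kit, and an Ensembl release for a separate genome alignment. The annotation behind the kallisto values, their scaling and the strand setting are given in none of the sources read here. TPM keep no depth.

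Genes with a mean of at least 1 were tested on log2(value + 0.5), where changes of low genes come out too small, in 1 limma model (version 3.58.1, R 4.3.3, eBayes with a mean-variance trend) over the 9 libraries, with Benjamini-Hochberg adjustment over 15014 genes and a threshold of 0.05. All adjusted p-values are from limma. The script was tested on simulated data. P-values measure the spread between 3 mice per group. List values per library are the mean log2 value over its genes, less the median over 9 libraries. Promoters are from RefSeq.

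The 44 genes and the other lists were chosen with earlier results of these data known. Values in every library are given for Mki67, Top2a, Cdk1, Ccnb1, Ccnd1, Pcna, Mcm2, Rrm2 and the 5 largest changes in each comparison, 16 genes in all, and for Mcm5 and Mcm6, chosen after their values were seen. Of the other lists, genes past the threshold and some of the next largest changes are named. In all, 17 alternative settings were planned, among them sex as a covariate, and 6 were added after seeing the data, as was the reading of the sex term.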

Additional observations from a re-analysis of the deposited data

How the results depend on the processing

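Under each of 23 alternative settings 0 of the S phase and mitotic genes were called in each of the 3 comparisons. For the 18 named S phase and mitotic genes 1215 values were recomputed, of which 0 were called and 111 had the other sign, all of them for changes that had not passed the test. The S phase median in cKO against control stayed below 0 (-0.25 to -0.09) under all its alternatives, and the mitotic median ran from -0.27 to 0.12. Leaving out 1 mouse, the S phase median in cKO against cHet ran from -0.26 to 0.05, and it was above 0 without cHet female 1. Without the 3 libraries whose genotype field differs from the title it was 0.05, the mitotic median 0.35 and their difference -0.31; the difference was also -0.31 with a minimum mean of 5. In cHet against control the difference was 0.19 when the 3 libraries rich in neuron markers were left out. The causes were not tested. The study assigned mice of near litters together, but the labels do not say which. With a replicate block of the 3 same-sex mice with neighbouring IDs, an assumed pairing, 0 of the 39 genes were called in each comparison and 120 and 124 genes in all in cKO against control and against cHet; the deviations of such mice from their group means correlated over 0.1 in 2 of 9 pairs (-0.53 to 0.38).

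Over all genes, 235 were called in cKO against control, 50 with the 2 groups alone, 50 to 179 without 1 mouse, and 0 with females only or without the 3 libraries whose genotype field differs. In cKO against cHet 256 were called, 168 with no filter, 55 to 274 without 1 mouse, 5 with females only and 0 without those 3 libraries. With equal sums the share of higher calls in that comparison was 30.8% in place of 54.7%. In cHet against control the count was 0 to 2. Tardbp kept its call against control under the 17 planned settings and in 2 of 6 added ones, with an adjusted p of 0.358 without the 3 libraries whose genotype field differs. With 3 mice per group the intervals of single genes were wide, and the read depth behind low values such as those of Cenpe or Mki67 is unknown.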
